A study of Caenorhabditis elegans with 28 samples.

Results

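The germline makes the eggs and sperm of *C. elegans*, and its mRNAs accumulate as the gonad grows through larval life. A fixed list of 43 germline, meiosis and oocyte genes was followed by name among the 20392 genes of the count table. All 43 were found there. It was chosen with earlier results of these data known. The list held 7 genes of P granules, 6 genes of germline stem cell control, 22 genes of meiosis and 8 genes of oocytes. All 43 code for proteins, and in the WBcel235 annotation they lie on chromosomes I (12 genes), II (5), III (4), IV (14) and V (8), with 0 on X.

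Levels were measured by poly(A) mRNA sequencing of whole larvae in *ebax-1(tm2321)* (strain HW3527) and in the wild-type strain N2. *ebax-1(tm2321)* carries a deletion in the gene for EBAX-1, a substrate receptor of a ubiquitin ligase that acts in microRNA decay, and N2 is the usual laboratory wild type. Synchronized L1 larvae of both strains were put on plates at 25°C, left without treatment and collected every hour from 18 h to 31 h after plating, which gave 14 libraries per genotype and 1 library per hour. Each genotype was therefore a single time course of 1 strain, consecutive hours are not independent replicates, and every p-value measures the scatter of hourly libraries around a smooth curve. Nothing else that differed between both cultures can be told apart from genotype.

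Germ cells carry P granules, which are droplets of RNA and protein beside the nucleus that store and survey transcripts. Notch signalling from a somatic niche and PUF repressor proteins hold the most distal germ cells in mitosis, and opposing RNA regulators bring them into meiosis. There, homologous chromosomes pair, are zipped together by the synaptonemal complex, break their DNA and form crossovers. In hermaphrodites the first germ cells to finish become sperm in the last larval stage, and later ones become oocytes, which are loaded with maternal mRNA and yolk.

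Levels are given as CPM, the count of a gene relative to the total of its library, scaled between libraries by the trimmed mean of M-values (TMM). Library totals were 5701773 to 9304062 counts in *ebax-1(tm2321)* and 5120921 to 9604238 counts in wild type, so that 1 CPM rested on about 5.1 to 9.6 reads. *ebax-1* itself, which checks the labels in part because reads outside the deletion still count, had 17.9 to 48.2 CPM in the mutant (median 25.2) and 33.3 to 136 CPM in wild type (median 70.5). In whole animals, more cells of a type and more RNA per cell cannot be told apart.

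How the germline genes changed over the sampled hours was asked first, in each genotype separately. The summed level of the 43 genes was 1079 CPM at 18 h and 2918 CPM at 31 h in *ebax-1(tm2321)*, and 1263 CPM at 18 h and 3686 CPM at 31 h in wild type. A gene was called rising when the linear term of a fit with 7 h rhythm terms had an adjusted p under 0.01 and the fitted change over the 13 h was at least 1 log2. By this rule 35 of 42 genes tested rose in the mutant, where 8.31% of all genes tested did. In wild type 34 of 43 rose, where 14.9% did. Since the list was chosen with earlier results of these data known, these shares describe it and are no test against all genes. *lab-1* was the gene not tested in the mutant, because its counts were too low there. Its wild-type call was largely set by the filter on low counts, which it passed only through its late hours. The median fitted change of the germline genes was 1.66 log2 in the mutant and 1.68 log2 in wild type, against -0.03 and 0.00 over all genes tested in each.

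**Figure D1:**
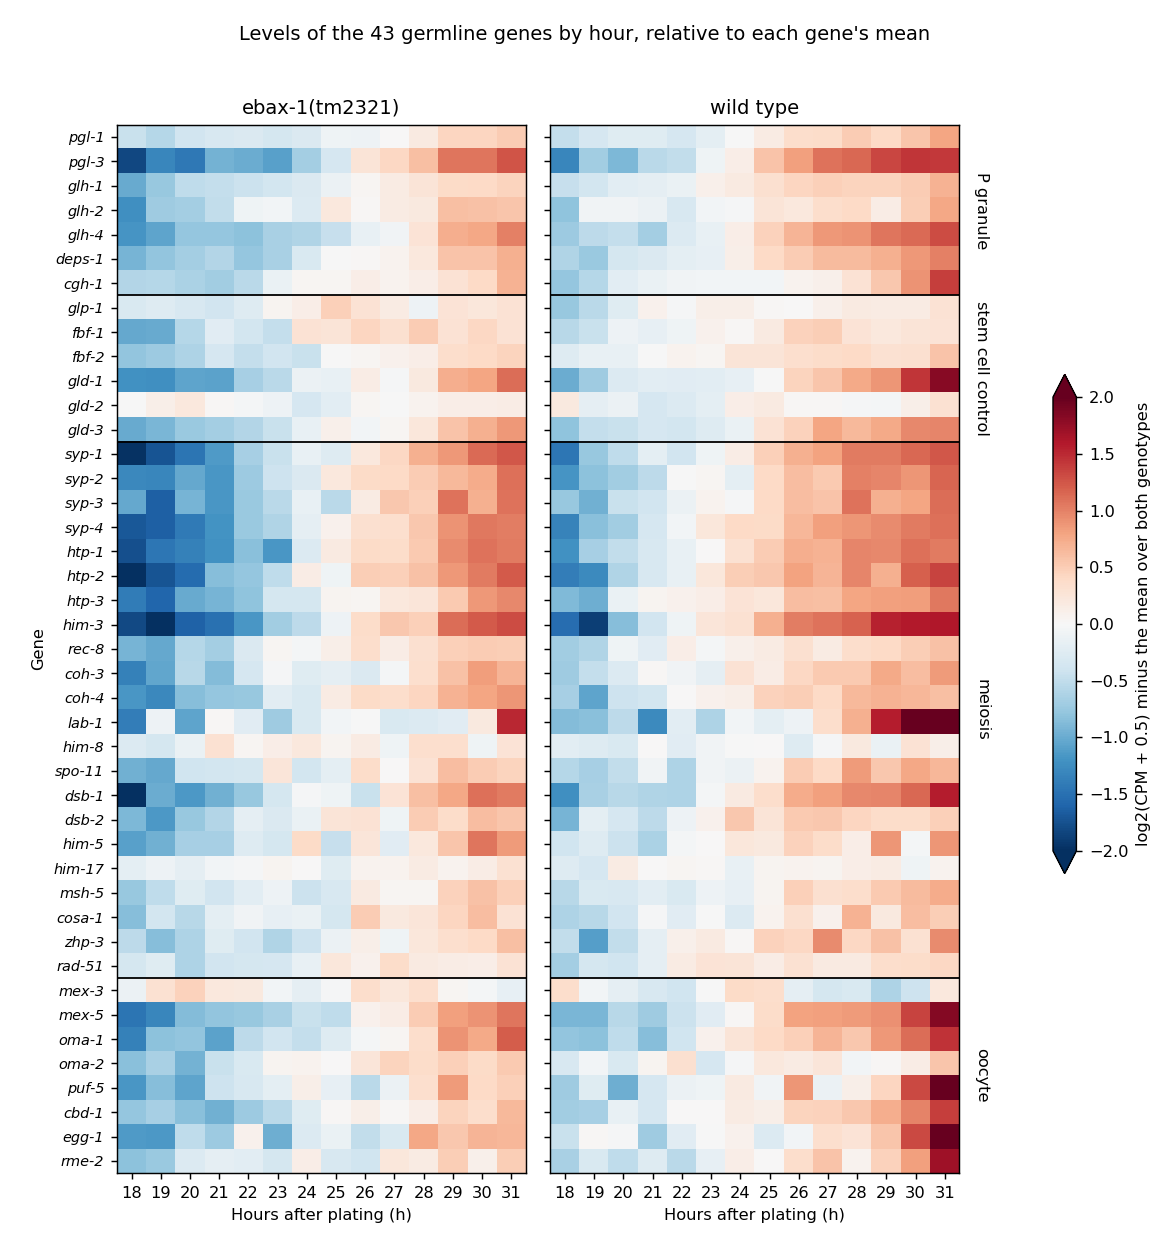
Level of each of the 43 germline genes (rows, by functional group) in each hourly library (columns, hours after plating), *ebax-1(tm2321)* left and wild type right. Colours give log2(CPM + 0.5) minus the gene's mean over all 28 libraries, with values past 2 in either direction drawn in the end colours, and most rows pass from blue to red in both genotypes, later in the mutant.

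No germline gene fell by the same rule (0 in each genotype, against 4.48% of all genes in the mutant and 6.14% in wild type). In the edgeR fits 0 had a falling linear term at an unadjusted p under 0.05, and DESeq2 and limma also called 0. The linear term alone passed the adjusted threshold in 38 genes in the mutant and 38 in wild type. For all genes tested, the share passing on this term alone, with no limit on the fitted change, is not given here. These counts of 38 therefore cannot be called few or many. In 39 of the 43 genes in the mutant, every level of the last 4 hours lay above every level of the first 4 hours, which 16.8% of all genes tested showed. In wild type this held for 38 of the 43 genes, against 22.2% of all genes tested.

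The rise was shared by 32 genes. The other calls were split: *fbf-1*, *fbf-2* and *oma-2* rose in the mutant alone and *pgl-1* in wild type alone. *lab-1* rose in wild type and was not tested in the mutant, and *him-8*, *gld-2*, *glp-1*, *mex-3*, *him-17* and *rad-51* rose in neither genotype. A call in a single genotype does not show a difference between them, and the test of that difference is given further on. Several of these genes lay close to the limit of 1 log2. *pgl-1* (0.99 in the mutant) was just outside and *rme-2* (1.0 in the mutant) just inside, as was *rec-8* (1.01 in wild type).

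**Figure D2:**
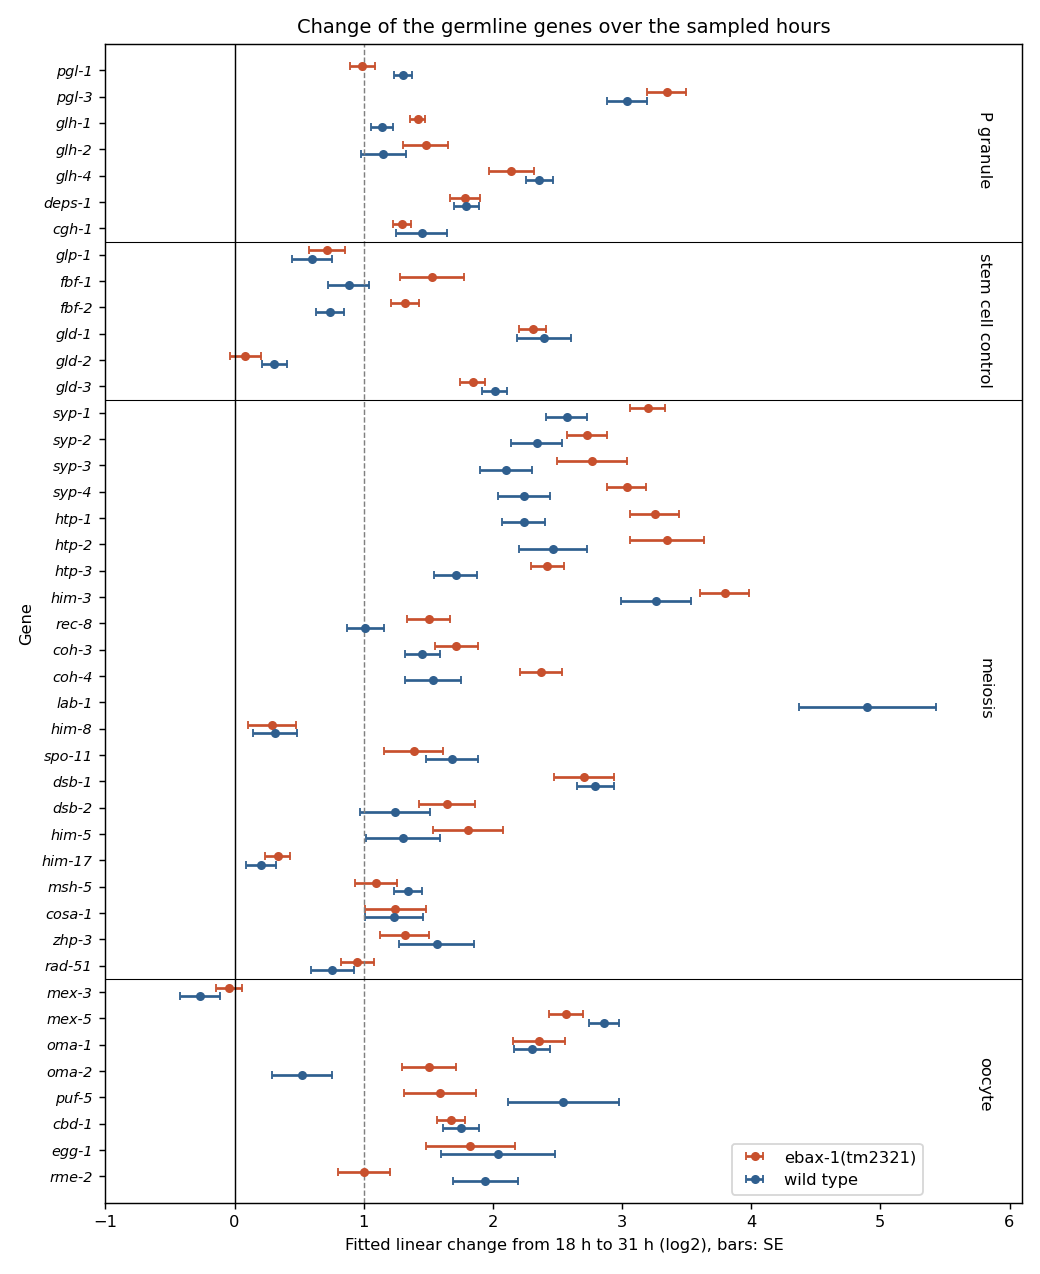
Fitted linear change of each germline gene from 18 h to 31 h on the log2 scale (x axis), with standard errors as bars, *ebax-1(tm2321)* in orange above wild type in blue. The dashed line marks the limit of 1 log2, and *lab-1* has no mutant value because it was not tested there.

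P granule genes rose in nearly every case, 6 of 7 in the mutant and 7 of 7 in wild type, with median changes of 1.48 and 1.45 log2. *glh-1*, a Vasa-like DEAD-box helicase of the granules, had the highest level per kilobase of exon of all 43 genes, averaging 133 CPM per kb in the mutant and 164 in wild type. Its level ran from 196 CPM at 18 h to 538 CPM at 31 h in the mutant (median 343), and from 285 CPM at 18 h to 641 CPM at 31 h in wild type (median 468). The mutant level was below the wild-type level of the same hour at 14 of 14 hours. Its fitted change was 1.42 log2 in the mutant (SE 0.057) and 1.14 in wild type (SE 0.084).

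*pgl-3*, which codes for a scaffold protein of the granule, changed most in this group. It had 12.8 to 112 CPM in the mutant (median 32.8) and 18.5 to 126 CPM in wild type (median 59.9). The fitted change was 3.35 log2 in the mutant (SE 0.15, 10.2-fold) and 3.04 log2 in wild type (SE 0.15, 8.22-fold). Its paralog *pgl-1*, also a scaffold gene, started higher and changed less, with 122 to 257 CPM in the mutant (median 159) and 130 to 314 CPM in wild type (median 191). *pgl-1* changed by 0.99 log2 in the mutant (SE 0.099) and rose by 1.31 log2 in wild type (SE 0.069). The mutant value passed the limit in 11 of 21 alternative analyses, among them those without the library of 18, 20, 26, 27 or 28 h.

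The remaining P granule genes lay between these. *glh-4*, another Vasa-like helicase gene, rose by 2.14 log2 in the mutant and 2.36 in wild type. *deps-1*, needed for P granule assembly and RNA interference, rose by 1.78 and 1.79 log2 in mutant and wild type. *glh-2*, close in sequence to *glh-1* so that shared reads leave both values uncertain, rose by 1.48 log2 in the mutant and 1.15 in wild type. Without the 18 h library the wild-type value of *glh-2* was 0.89 and the call was lost.

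*cgh-1*, a DDX6-type RNA helicase of germ granules and stored maternal RNA, rose unevenly. Its level stayed between 127 and 143 CPM in the mutant up to 22 h, then between 189 and 274 CPM from 23 h to 30 h, and was 337 CPM at 31 h. In wild type it reached 179 CPM by 20 h, stayed at or under 254 CPM up to 28 h and was 541 CPM at 31 h. The fitted linear change was 1.29 log2 in the mutant (SE 0.069) and 1.45 in wild type (SE 0.20).

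Genes of stem cell control were mixed: 4 of 6 rose in the mutant and 2 of 6 in wild type, with median changes of 1.42 and 0.81 log2. *gld-1*, whose KH-domain protein represses translation as germ cells leave mitosis and as oocytes form, changed most. It had 35.9 to 185 CPM in the mutant (median 77.3) and 42.5 to 299.9 CPM in wild type (median 80.1). It rose by 2.31 log2 in the mutant (SE 0.10) and by 2.40 in wild type (SE 0.21). *gld-3*, a Bicaudal-C relative that partners the GLD-2 poly(A) polymerase, rose by 1.85 log2 in the mutant and 2.01 in wild type.

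*gld-2*, the gene for that cytoplasmic poly(A) polymerase, stood level, with 120 to 175 CPM in the mutant and 120 to 188 CPM in wild type. Its fitted changes were 0.08 log2 in the mutant and 0.31 in wild type and did not pass (adjusted p = 0.62 and 0.018). *glp-1*, the Notch receptor gene that keeps stem cells in mitosis, had 34.5 to 63.1 CPM in the mutant (median 48.2) and 26.5 to 54.8 CPM in wild type (median 48.0). Its linear term passed in both genotypes (adjusted p = 0.0011 in the mutant and 0.0060 in wild type), but the changes of 0.72 and 0.60 log2 were under the limit. At 21 h *glp-1* had 34.5 CPM in the mutant and 47.5 CPM in wild type, and at 24 h it had 49.5 CPM in the mutant and 48.8 CPM in wild type.

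The PUF repressor genes *fbf-1* and *fbf-2* are near-identical neighbours, 8019 bases apart on chromosome II in WBcel235, and reads they share leave each value uncertain. *fbf-1* had 9.85 to 29.5 CPM in the mutant and 13.8 to 29.1 CPM in wild type, and *fbf-2* had 12.4 to 29.6 CPM in the mutant and 18.0 to 32.5 CPM in wild type. The fitted changes were 1.53 and 1.32 log2 in the mutant (SE 0.25 and 0.11), against 0.88 and 0.74 log2 in wild type (SE 0.16 and 0.11). Without the last wild-type library, at 31 h, *fbf-1* passed the limit in wild type as well (1.03 log2).

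Meiosis genes formed the largest group, of which 18 of 21 tested rose in the mutant and 19 of 22 in wild type, with median changes of 1.81 and 1.62 log2. The 4 genes of the synaptonemal complex central region, *syp-1* to *syp-4*, rose in both genotypes. Their changes were 2.73 to 3.20 log2 in the mutant (median 2.90) and 2.10 to 2.57 log2 in wild type (median 2.29). *syp-1* had 5.91 to 59.5 CPM in the mutant (median 21.5) and 8.82 to 59.3 CPM in wild type (median 31.1). Both genotypes thus ended at the same level, and the mutant was below wild type at 13 of the 14 hours.

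All 8 genes of the chromosome axis and cohesin rose wherever they were tested. These were 7 of 7 in the mutant and 8 of 8 in wild type (median changes 2.42 and 1.98 log2). The 8 of 8 includes *lab-1*, whose wild-type call was largely set by the filter on low counts. *him-3*, an axis protein gene of the HORMA family, had the largest change among the genes rising in both genotypes. It had 3.90 to 50.1 CPM in the mutant (median 16.1) and 5.05 to 61.2 CPM in wild type (median 28.9). Its fitted changes were 3.79 log2 in the mutant (SE 0.19, 13.9-fold) and 3.26 log2 in wild type (SE 0.27, 9.61-fold). The other HORMA genes, *htp-1*, *htp-2* and *htp-3*, rose by 3.26, 3.35 and 2.42 log2 in the mutant and by 2.24, 2.47 and 1.71 log2 in wild type. *htp-1* and *htp-2* are near-identical copies, so the split of reads between them is uncertain.

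The cohesin kleisin genes *rec-8*, *coh-3* and *coh-4* rose by 1.50, 1.72 and 2.38 log2 in the mutant and by 1.01, 1.46 and 1.54 log2 in wild type. *coh-3* and *coh-4* are also near-identical. The wild-type call of *rec-8* was lost in 6 of 21 alternatives, among them those without the library of 18, 19, 23 or 26 h, where its change was between 0.83 and 0.98 log2. *lab-1*, which protects cohesion on the long arms of paired chromosomes, had the lowest mean level per kilobase of the 43 genes in the mutant and, after *puf-5*, the next lowest in wild type. It stayed at or under 1.32 CPM up to 30 h in the mutant and was 3.99 CPM at 31 h, and in wild type it stayed at or under 1.52 CPM up to 27 h and was 10.5 CPM at 31 h. Its wild-type change was 4.90 log2 (SE 0.53), fitted to counts that went down to 1 read. *lab-1* passed the filter on low counts in wild type only through its late hours, so that call was largely set by the filter. The level at 31 h over that at 28 h was 2.31 log2 in each genotype.

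Genes for DNA breaks and their repair spanned a wide range of changes. *dsb-1*, needed for meiotic breaks, rose by 2.71 log2 in the mutant and 2.79 in wild type and had 2.41 to 25.9 CPM in the mutant and 4.78 to 36.2 CPM in wild type. *dsb-2*, its partner, rose by 1.64 log2 in the mutant and 1.25 in wild type. *spo-11*, the gene for the enzyme that cuts the DNA, rose by 1.39 log2 in the mutant and 1.68 in wild type. *him-5*, which promotes breaks on the X chromosome, rose by 1.81 log2 in the mutant and 1.31 in wild type. Without the wild-type library of 18 h the wild-type calls of *dsb-2* (0.91 log2) and *him-5* (1.22 log2) were lost, as was that of *dsb-2* without 27 h (1.14 log2). Without that 18 h library the number of rising genes in wild type was 30.

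*him-17*, a chromatin protein gene needed for breaks, stood level at 44.5 to 65.8 CPM in the mutant and 41.7 to 59.6 CPM in wild type, with fitted changes of 0.33 and 0.21 log2 that did not pass. *him-8*, whose zinc-finger protein binds the X pairing centre, likewise had 7.95 to 13.1 CPM in the mutant and 8.22 to 12.8 CPM in wild type, with changes of 0.29 and 0.31 log2 that did not pass. The crossover genes *msh-5* (a MutS homolog), *cosa-1* (a cyclin-like protein) and *zhp-3* (a RING-finger protein) rose by 1.10, 1.24 and 1.32 log2 in the mutant and by 1.34, 1.24 and 1.56 log2 in wild type. *rad-51*, the strand exchange recombinase gene, had 19.8 to 39.5 CPM in the mutant and 18.9 to 40.8 CPM in wild type. Its linear term passed in both genotypes, but the changes of 0.95 log2 in the mutant and 0.76 in wild type were under the limit, and without the 31 h library the mutant value was 1.03.

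Oocyte genes rose in 7 of 8 cases in the mutant and 6 of 8 in wild type, with median changes of 1.64 and 1.99 log2. *mex-5*, a CCCH zinc-finger gene of embryo polarity, had 9.30 to 55.9 CPM in the mutant (median 18.9) and 13.8 to 96.0 CPM in wild type (median 30.5), and rose by 2.56 and 2.86 log2. *oma-1*, needed with *oma-2* for oocyte maturation, rose by 2.36 log2 in the mutant and 2.31 in wild type. *oma-2* had 3.61 to 10.9 CPM in the mutant and 5.78 to 11.2 CPM in wild type, rose by 1.50 log2 in the mutant (SE 0.21), and had a fitted change of 0.52 in wild type that did not pass (SE 0.23, adjusted p = 0.084). *oma-1* and *oma-2* resemble each other, which leaves some uncertainty in their split.

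The genes of the egg surface and of yolk uptake all rose. *cbd-1*, a chitin-binding eggshell protein gene, rose by 1.68 log2 in the mutant and 1.76 in wild type. *egg-1*, whose product on the oocyte surface is needed for fertilization and which shares sequence with *egg-2*, rose by 1.83 log2 in the mutant (SE 0.34) and 2.04 in wild type (SE 0.44). *rme-2*, the yolk receptor gene, rose by 1.0 log2 in the mutant (SE 0.20) and 1.94 in wild type (SE 0.25). Its mutant call was lost in 10 of 21 alternatives, among them those without the library of 18, 19, 22, 23, 27, 29 or 31 h (0.89 to 0.98 log2). *puf-5*, a PUF repressor gene of growing oocytes, rose by 1.59 log2 in the mutant (SE 0.28) and 2.55 in wild type (SE 0.43).

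The last hours set several oocyte genes apart. *puf-5* had 4.31 CPM at 28 h and 4.79 CPM at 31 h in the mutant, and 3.66 CPM at 28 h and 19.0 CPM at 31 h in wild type. *egg-1* had 7.54 CPM at 28 h and 6.92 CPM at 31 h in the mutant, and 5.21 CPM at 28 h and 20.2 CPM at 31 h in wild type. *rme-2* had 14.1 CPM at 28 h and 17.8 CPM at 31 h in the mutant, and 13.2 CPM at 28 h and 41.8 CPM at 31 h in wild type. All 3 were thus highest in the last wild-type library and lower in every mutant library.

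Across the groups, the level at 31 h over that at 28 h had a median of 0.25 log2 for the 8 oocyte genes in the mutant and 0.96 log2 in wild type. For the P granule genes it was 0.50 log2 in the mutant and 0.37 in wild type, for the stem cell genes 0.36 and 0.26, for the meiosis genes 0.45 and 0.22, and over all genes tested 0.03 and 0.05. A ratio of at least 1 log2 was found for *lab-1* in the mutant (2.31), and for *puf-5*, *lab-1*, *egg-1*, *rme-2*, *cgh-1* and *gld-1* in wild type. Each is a ratio of single libraries with no replicate check, and in the stage matching used further on the last mutant library pairs with wild type of 28 h. Without the wild-type library of 31 h the linear call of *egg-1* was lost (1.43 log2).

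**Figure D3:**
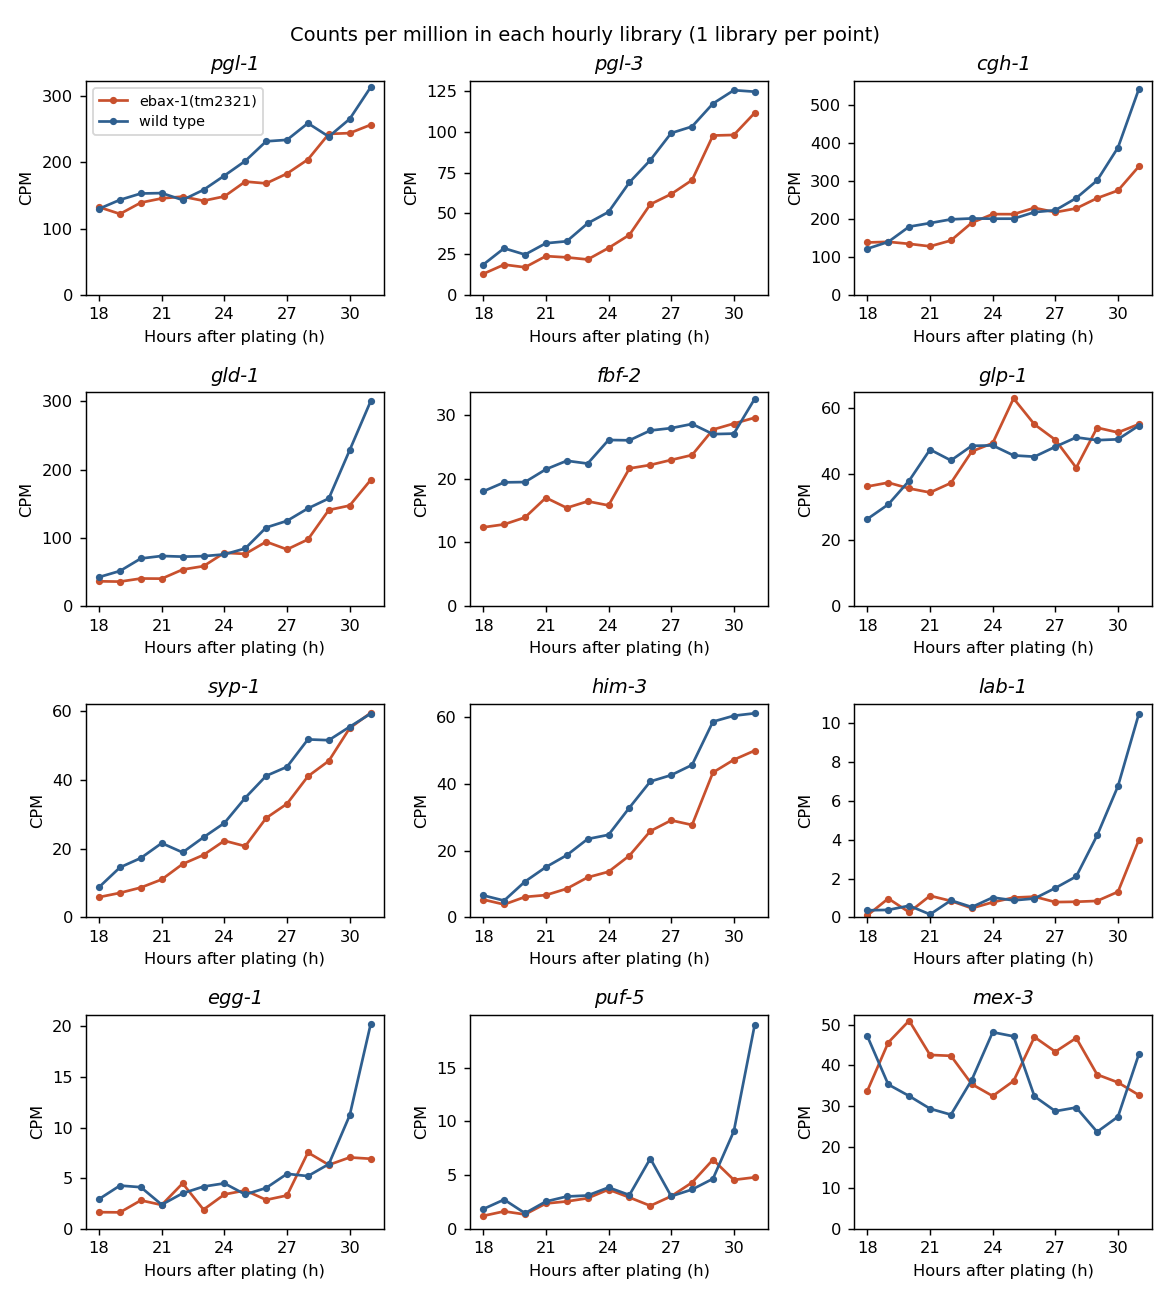
Level in CPM (y axis, from 0) against hours after plating (x axis) for 12 germline genes picked after their values were seen to show each shape, *ebax-1(tm2321)* in orange and wild type in blue, 1 library per point. *pgl-3*, *syp-1* and *him-3* climbed over many hours, *lab-1*, *egg-1* and *puf-5* stepped up at the end in wild type, and *mex-3* went up and down.

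Other transcripts moved over the same hours, and their part in the germline values was not tested. The summed level of 42 sperm genes was 5.47 CPM at 18 h, 22.9 CPM at 28 h and 297 CPM at 31 h in the mutant, and 5.14, 338 and 2219 CPM at these hours in wild type. The mutant sum at 31 h was thus near the wild-type sum of 28 h. Of these sperm genes 11 of 12 tested rose in the mutant and 40 of 40 in wild type, against 8.31% and 14.9% of all genes tested. With sums that low at 18 h, sperm genes passed the filter on low counts mainly through late hours. Their calls were therefore largely set by the filter. Meiosis genes such as *msh-5* and *spo-11* act in the making of sperm as well as of oocytes. Of 20 neuron genes, 10 fell in the mutant and 11 fell in wild type, against 4.48% and 6.14% of all genes tested. Of 14 body wall muscle genes 0 rose or fell in each. Of 17 somatic gonad genes 15 were tested in each genotype. Of these, 2 rose and 2 fell in the mutant, and 3 rose and 3 fell in wild type. *fkh-6* and *inx-8*, which rose in both, had at most 1.59 CPM at 18 h, so late hours weighed in their passing the filter.

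Many larval genes oscillate with the molting cycle, so a 7 h rhythm was asked of the same fits. An oscillating gene needed rhythm terms past 0.01 after adjustment and an amplitude, from mid-line to peak, of 0.5 log2 or more. Of the germline genes 0 met this in either genotype with edgeR, DESeq2 or limma, where 18.3% of all genes tested did in the mutant and 19.5% in wild type. At an unadjusted p under 0.05 the rhythm terms passed in 10 germline genes in the mutant and 9 in wild type. The share of all genes at this looser threshold is not given here, so these counts cannot be called few or many. The median amplitude was 0.11 log2 in the mutant and 0.11 log2 in wild type, against 0.20 and 0.26 over all genes tested. The rhythm terms passed the adjusted threshold in *glh-1*, *cgh-1* and *mex-3* in the mutant and in *gld-2* and *mex-3* in wild type, all with amplitudes under the limit.

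*mex-3*, a KH-domain regulator of maternal mRNA, did not rise in either genotype. It had 32.5 to 51 CPM in the mutant (median 40.1) and 23.7 to 48.1 CPM in wild type (median 32.5), with linear changes of -0.04 and -0.27 log2 that did not pass. Its amplitude was 0.28 log2 in the mutant (edgeR adjusted p = 0.00028) and 0.39 log2 in wild type (adjusted p = 0.00051). Mutant levels were highest at 20 h and low at 24 h and 31 h. Wild-type levels were highest at 24 h and low at 22 h and 29 h.

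How far the mutant lagged was described for the 32 genes that rose in both genotypes. For each gene, the wild-type course was interpolated and shifted in steps of 0.1 h until it lay closest to the mutant course on the log2(CPM + 0.5) scale. The shift was positive, with the mutant later, in 32 of 32 genes, with a median of 2.5 h (quartiles 2.38 and 2.7 h, range 0.5 h for *cosa-1* to 3.6 h for *zhp-3*). The 855 other genes that rose in both genotypes had a median of 2.9 h (quartiles 2.5 and 3.3 h), and 818 of them were positive. The P granule genes had a median of 2.95 h, the stem cell genes 2.55 h, and the meiosis and oocyte genes 2.5 h each. Within the P granule group *glh-1*, *glh-4* and *deps-1* matched best at 3.4 to 3.5 h and *cgh-1* at 1.8 h. Apart from *cosa-1*, the shifts lay at 1.6 to 1.8 h, 2.3 to 2.8 h or 3.3 to 3.6 h, so no gene had the P granule median itself. Straight-line interpolation between hourly libraries can draw the best shift towards points midway between hours. Differences of less than 1 h between genes or groups are therefore uncertain. No test was made of these shifts, since all come from the same pair of time courses.

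**Figure D4:**
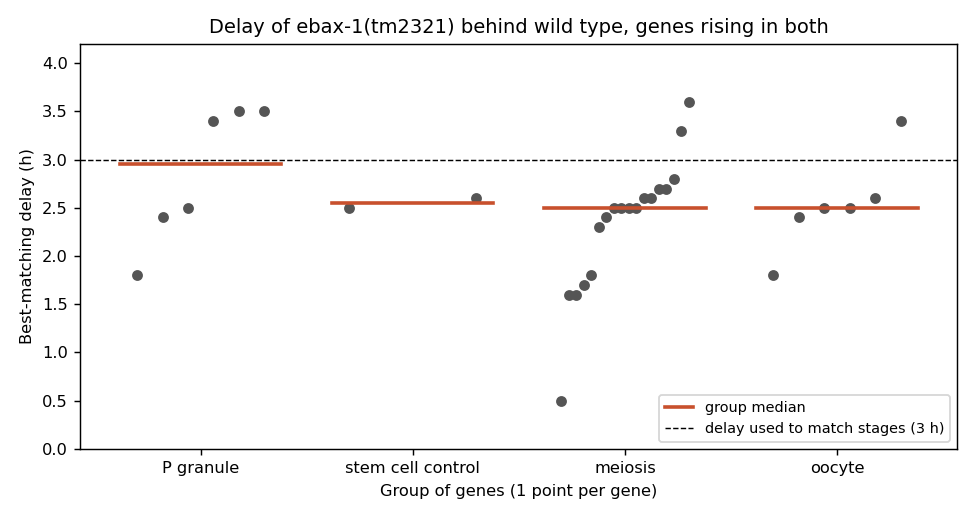
Best-matching delay of *ebax-1(tm2321)* behind wild type in hours (y axis) for each germline gene that rose in both genotypes (1 point per gene, in groups along the x axis). Orange lines mark the group medians of 2.5 to 2.95 h, and the dashed line marks the 3 h delay used to match stages.

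Whether the mutant differed once the delay was allowed for was asked by matching mutant libraries of 21 h to 31 h with wild-type libraries taken 3 h earlier, 18 h to 28 h, as in the design of the study, which read the delay from oscillating genes. The genotype contrast was averaged over the 11 stages of a spline fit. Of the 43 germline genes 3 were higher in the mutant and 0 lower at an adjusted p under 0.01, where 9.73% of all genes tested were higher and 9.16% lower. Over all genes this was 1364 higher and 1284 lower, and with scaling by total counts alone 1893 higher and 871 lower, with 6 germline genes higher. At an unadjusted p under 0.05 there were 19 of the 43 germline genes in either direction, of which 3 were lower, and 5645 of the 14022 genes tested. DESeq2 and limma called 0 germline genes lower. The differences were small, from -0.13 to 0.44 log2, with a median of 0.12 over the germline genes and 0.04 over all genes tested. They were positive in 36 of the 43 genes. The share of positive differences over all genes is not given here, so this count cannot be called high or low. Signs also moved with the settings. Over the alternatives *pgl-3* ran from -0.16 to 0.30 log2 and *him-3* from -0.18 to 0.40 log2.

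The called genes were *cgh-1*, *glp-1* and *syp-1*. *cgh-1* averaged 220 ± 58.0 CPM in mutant libraries and 193 ± 37.0 CPM in wild-type libraries (SD over hours, n = 11 each), and was higher in the mutant at 11 of 11 stages, by 0.17 log2 (SE 0.027, edgeR adjusted p = 0.00045). *glp-1* averaged 49.2 ± 8.46 CPM in mutant and 43.2 ± 8.01 CPM in wild-type libraries, and was higher at 10 of 11 stages, by 0.20 log2 (SE 0.050, edgeR adjusted p = 0.0096). *syp-1* averaged 31.9 ± 16.4 CPM in mutant and 27.6 ± 13.6 CPM in wild-type libraries, and was higher at 11 of 11 stages, by 0.20 log2 (SE 0.050, edgeR adjusted p = 0.0093). The ranges of the genotypes overlapped in all 3 genes.

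Only *cgh-1* among these kept its call under most other settings, losing it in 1 of 19, at a delay of 2 h (0.05 log2). *glp-1* lost its call in 14 of 19 alternatives, among them those without the stage pair of any single wild-type hour from 18 h to 26 h (0.16 to 0.22 log2). *syp-1* lost its call with the same sign in 12 of 19, among them those without the pair of wild-type hour 18, 19, 20 or any from 23 to 28 h (0.18 to 0.21 log2), and in 1 more, with a delay of 2 h, it was -0.04 log2 and not called. The count moved with the assumed delay, to 0 higher and 5 lower at 2 h and to 16 higher and 0 lower at 4 h.

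The largest differences by size did not pass. *lab-1* was 0.44 log2 higher (SE 0.23) at about 1 CPM, *him-8* 0.27 log2 higher (SE 0.074, adjusted p = 0.016) and *htp-2* 0.25 log2 higher (SE 0.071, adjusted p = 0.016). The lowest value was that of *fbf-2*, at -0.13 log2 (SE 0.047, adjusted p = 0.056). In the groups the median differences were 0.05 log2 for P granules, 0.13 for stem cell control, 0.15 for meiosis and 0.13 for oocyte genes. Body wall muscle genes, which mark other cells of the animal, were lower in the mutant at matched stage in 12 of 14 cases (median -0.19 log2). Of all genes tested 9.16% were lower, and the part of the muscle difference in the germline values was not tested.

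**Figure D5:**
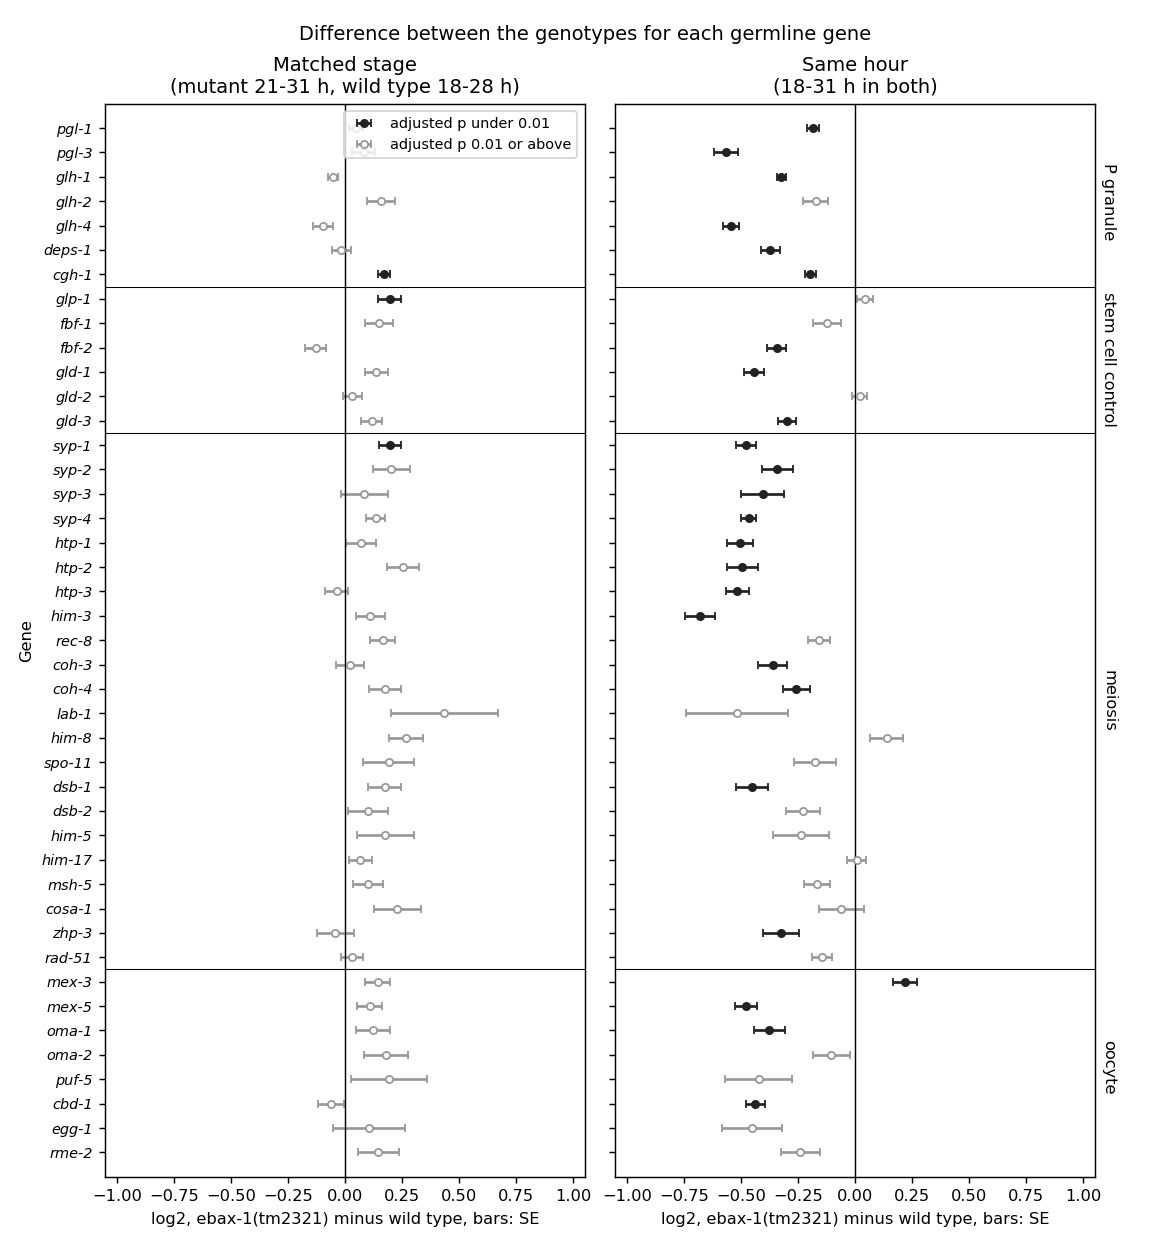
Difference of each germline gene between the genotypes in log2, *ebax-1(tm2321)* minus wild type (x axis), with standard errors as bars, at matched stage (left) and at the same hour (right). Filled points had an adjusted p under 0.01, namely *cgh-1*, *glp-1* and *syp-1* at matched stage and 25 genes at the same hour, 24 of them lower in the mutant.

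The rate of the rise was compared in the same windows with a linear term by genotype. No germline gene passed at 0.01 (edgeR, 0 of 43, and 0% of 13661 genes tested), and the lowest adjusted p among them was 0.70. At an unadjusted p under 0.05 there were 3 germline genes and 756 of all genes, and DESeq2 and limma called 0 germline genes. The 3 were *gld-1*, *fbf-2* and *cgh-1*, with slopes 0.45, 0.31 and 0.27 log2 per 10 h steeper in the mutant (SE 0.14, 0.14 and 0.12). The standard error of the slope difference had a median of 0.22 log2 per 10 h over the germline genes. Differences well above that size did not pass either, such as those of *egg-1* (0.94, SE 0.48) and *lab-1* (-0.97, SE 0.91). The test therefore cannot exclude slope differences of several times 0.22 log2 per 10 h.

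At the same hour, with no allowance for the delay, 24 of the 43 germline genes were lower in the mutant and 1 was higher at an adjusted p under 0.01, where 13.6% of all genes tested were lower and 14.2% higher. Over all genes this was 1976 lower and 2071 higher, and with scaling by total counts alone 1288 lower and 2881 higher, with 23 germline genes lower. The median difference was -0.32 log2, against 0.00 over all genes tested. The largest were those of *him-3* (-0.68 log2, SE 0.064), *pgl-3* (-0.56, SE 0.052) and *glh-4* (-0.54, SE 0.034), all lower at 14 of 14 hours. By group, 6 of 7 P granule genes, 3 of 6 stem cell genes, 12 of 22 meiosis genes and 3 of 8 oocyte genes were lower.

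The gene higher in the mutant at the same hour was *mex-3* (0.22 log2, SE 0.052, edgeR adjusted p = 0.0024), in 9 of the 14 hours. This call was lost without the libraries of 19, 20, 21, 22 or 27 h (0.19 to 0.20 log2). Genes that did not rise, *gld-2* (0.02 log2), *him-17* (0.01 log2), *him-8* (0.14 log2) and *glp-1* (0.04 log2), had small same-hour differences that did not pass. *rad-51*, which also did not rise, was at -0.14 log2 (SE 0.045, edgeR adjusted p = 0.015), lower in the mutant in 10 of the 14 hours, and passed in 4 of 19 alternatives, those without the libraries of 18, 19, 25 or 27 h (-0.19 to -0.17 log2).

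Some germline genes lie side by side in the genome, in WBcel235 coordinates. *pgl-1* and *him-3* on chromosome IV point away from each other with 189 bases between them, and *rec-8* and *mex-5* on the same chromosome do so across 529 bases. Their changes differed within each pair: *pgl-1* changed by 0.99 log2 in the mutant and 1.31 in wild type and *him-3* by 3.79 and 3.26. *rec-8* changed by 1.50 log2 in the mutant and 1.01 in wild type and *mex-5* by 2.56 and 2.86. *rad-51* lies 2710 bases from *ebax-1* on chromosome IV, and at matched stage it differed by 0.03 log2 (SE 0.048, adjusted p = 0.67).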

How the data were processed

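Per the labels, synchronized N2 and *ebax-1(tm2321)* larvae were sampled hourly and sequenced as stranded, paired-end poly(A) libraries. The authors aligned reads to ce10 with HISAT2 through QuasR (versions not given in the sources used here) and counted reads per WS220 gene on 1 strand, and the deposited counts are raw. The deposited log2 values, which the authors made after dividing by each library total, multiplying by the average total and adding 8, served 1 alternative, and recomputed values differed by at most 0.0005. How reads shared by near-identical genes were counted was not given.

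Groups came from the labels. Tests used R 4.3.3 and edgeR 4.0.16 (TMM, filterByExpr, quasi-likelihood F tests, Benjamini-Hochberg 0.01 over all genes tested), with DESeq2 1.42.0 and limma 3.58.1 as alternatives. Models were cosine, sine (7 h) and linear hour per genotype, and a cubic B-spline of 6 components by genotype. Scripts were tested on simulated data. All 43 genes were named, with up to 3 genes of each other list by size of linear change. The germline genes and lists were chosen with earlier results of these data known. Best-matching delays ran from -3 to 6 h over at least 8 hours and were chosen after seeing the data. Gene positions are from WBcel235, not the counting build. No pair of libraries was identical (0 pairs).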

Additional observations from a re-analysis of the deposited data

How the results depend on the processing

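The number of rising germline genes ran from 32 to 36 in *ebax-1(tm2321)* and from 30 to 34 in wild type over all alternatives, and the counts of oscillating genes and of slope differences were 0 in each. The number higher in the mutant at matched stage was 3 as reported, 1 with DESeq2 size factors, 6 with scaling by total counts alone, 1 without a filter on low counts, 1 with the DESeq2 test, 6 with limma on the deposited log2 values, 0 with a delay of 2 h, 16 with a delay of 4 h, and 1 to 2 without single stage pairs. With the stage pair as a factor it was 2. With a delay of 2 h, 5 genes were lower in the mutant, and *syp-1* reversed to -0.039 log2. At the same hour 23 to 27 genes were lower over all alternatives, and 0 to 1 higher without single hours. The median best-matching delay was 2.4 h with scaling by total counts and 2.5 h with a pseudocount of 2 CPM, both chosen after seeing the data. Single genes moved more with scaling by total counts, such as *msh-5* from 2.7 h to 0.6 h, and the lower quartile was then 1.7 h. The causes of these changes were not tested. Each genotype was 1 time course, which limits all p-values, and genes at a few CPM, such as *lab-1*, rest on a few reads. The labels carry no replicate numbers, so stage and hour were the means of pairing the genotypes. The median over all genes moved by less than 0.1 log2 under each scaling.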

Other observations

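Other genes of the same pathways, from lists made with earlier results known, also rose in part. Of all genes tested, 8.31% rose in the mutant and 14.9% in wild type. Of 11 other P granule and germ granule genes tested, 7 rose in *ebax-1(tm2321)* and 6 in wild type, with median changes of 1.47 and 1.03 log2. The Argonaute gene *csr-1* had 92 CPM at 18 h and 271 CPM at 31 h in the mutant (1.47 log2, SE 0.078), and 123 CPM at 18 h and 383 CPM at 31 h in wild type (1.69 log2, SE 0.086). The Argonaute gene *wago-4* rose by 1.87 log2 in the mutant and 1.70 in wild type, and *mip-2*, for a germ granule protein, by 1.77 in each. Of 15 other genes of stem cell and sex-fate control, 7 rose in the mutant and 6 in wild type, among them the RNA-binding protein genes *rnp-8* (1.77 and 1.43 log2) and *daz-1* (1.53 and 1.15 log2) and the RNA-directed RNA polymerase gene *ego-1* (1.51 and 1.32 log2). Of 34 other meiosis genes, 18 rose in the mutant and 18 in wild type, with median changes of 1.22 and 1.01 log2. Among them were *zhp-2* (2.29 log2 in the mutant and 2.34 in wild type), *sun-1*, which links chromosomes to the nuclear envelope (2.18 and 1.67 log2), and *syp-6* (1.82 and 1.65 log2).

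Other oocyte and egg genes went both ways: 12 rose and 2 fell of 21 tested in the mutant, and 18 rose and 1 fell of 22 in wild type. Of all genes tested, 8.31% rose and 4.48% fell in the mutant, and 14.9% rose and 6.14% fell in wild type. *mex-6*, the close relative of *mex-5*, rose by 2.73 log2 in the mutant and 2.97 in wild type, and *puf-7* by 2.35 and 2.34 log2. *lin-41*, a TRIM-NHL regulator that acts both in oocytes and in the larval timing pathway of somatic cells, fell, with 295 CPM at 18 h and 44.5 CPM at 31 h in the mutant and 260 CPM at 18 h and 33.6 CPM at 31 h in wild type.

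Most of the sperm and yolk transcripts named here were at or near 0 counts early, so no fold is given for these genes. The exception was *vit-1*, with 1.09 CPM at 18 h in the mutant and 5.88 CPM in wild type. *gsp-3*, a sperm phosphatase gene, had 18.9 CPM at 31 h in the mutant and 117 CPM in wild type, *ssq-1* had 14.8 and 164 CPM, and *msp-33*, a major sperm protein gene, had 3.19 and 75.5 CPM. Of the yolk protein genes at 31 h, *vit-2* had 65.9 CPM in the mutant and 237 CPM in wild type, *vit-6* had 14.2 and 304 CPM, and *vit-1* had 54.2 and 124 CPM. They had the largest changes in a list of 15 yolk and intestine genes. Of 12 tested, 4 rose in the mutant and 3 in wild type, with median changes of 0.23 log2 in each. Of all genes tested, 8.31% rose in the mutant and 14.9% in wild type. *vit-2* and *vit-6* had counts down to 0 and passed the filter on low counts mainly through late hours. Their calls were therefore largely set by the filter. The summed level of the 15 was 6214 CPM at 18 h and 7380 CPM at 31 h in the mutant, and 8147 and 6429 CPM in wild type. Of the somatic gonad genes, *fkh-6* had 13.6 CPM at 31 h in the mutant and 9.44 CPM in wild type, *inx-8* had 22.9 and 36.8 CPM, and *egl-43* fell by 1.73 and 2.16 log2. The neuron genes *unc-17*, *unc-25* and *rab-3* fell by 1.50, 1.65 and 1.47 log2 in the mutant and by 1.75, 1.39 and 1.49 log2 in wild type.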
